A study of Mus musculus with 6 samples.

Results

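The mRNAs of the nonsense-mediated and Staufen-mediated decay machinery were followed through a Staufen2 pulldown from mouse podocytes. The 9 listed genes were chosen by name, with earlier results of these data known. They were Upf1, Upf2, Upf3a, Upf3b, Smg1, Smg5, Smg6, Smg8 and Smg9, taken as the UPF and SMG factors of the pathway. Of these, 7 had a probe set that the platform annotation pairs with that 1 gene alone, among 19938 genes so measured, and each of the 7 had 1 such probe set. Upf3a and Upf3b are not analysed here. The samples were 3 arrays of total input RNA (input) and 3 of RNA co-precipitated with a Staufen2 antibody from cytoplasmic lysate (pulldown). Both groups came from 1 immortalized murine podocyte line, grown at 33 °C with gamma-interferon and differentiated at 37 °C without it, with no genotype or drug differing between them. Podocytes are the epithelial cells that wrap the glomerular capillaries of the kidney. Every array was labelled from 100 ng of RNA, so a value describes a share of the RNA and not the amount recovered.

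Nonsense-mediated decay removes mRNAs whose translation ends too early or in an unfavourable context. UPF1, an RNA helicase, is held at such a stop codon, joined by UPF2 and UPF3 proteins, and phosphorylated by the kinase SMG1, whose activity SMG8 and SMG9 restrain. Phosphorylated UPF1 recruits SMG6, which cuts the RNA, and SMG5, which helps to bring in decapping and deadenylation. In Staufen-mediated decay, Staufen proteins bound to a double-stranded region of an mRNA recruit UPF1 to it without an exon junction complex. In human cells several of these factors are themselves encoded by mRNAs that the pathway degrades.

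Sequence before the gene is shown for Upf2 and Smg8, a member with a large and a member with a small difference, to identify them in the genome. It was taken from RefSeq promoter windows (GRCm38.p6), in which all 9 genes were matched, and only bases outside the gene's span in the RefSeq gene table are printed, 228 for Upf2 and 250 for Smg8. Capitals mark GC boxes (GGGCGG on either strand, runs that overlap included).
Upf2 (chr2:5951219-5951446, plus strand): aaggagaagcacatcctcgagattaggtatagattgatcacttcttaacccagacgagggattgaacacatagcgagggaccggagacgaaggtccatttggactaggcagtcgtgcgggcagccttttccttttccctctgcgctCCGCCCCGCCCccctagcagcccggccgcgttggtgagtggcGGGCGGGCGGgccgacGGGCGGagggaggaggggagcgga
Smg8 (chr11:87086778-87087027, minus strand): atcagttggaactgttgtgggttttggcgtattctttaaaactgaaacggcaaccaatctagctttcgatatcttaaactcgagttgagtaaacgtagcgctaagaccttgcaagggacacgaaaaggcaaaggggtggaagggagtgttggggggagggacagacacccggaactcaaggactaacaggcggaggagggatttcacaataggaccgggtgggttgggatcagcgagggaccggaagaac
In the 250 bases before the start that each window gives, which for some genes lie partly or wholly inside that span, a GC box was found in 5 of the 7 measured genes, namely Upf1, Upf2, Smg1, Smg6 and Smg9, and in 32.7% of all 32851 such windows. The Smg1 and Upf2 windows held 5 each, those of Upf1 and Smg6 held 2 each, that of Smg9 held 1 and those of Smg5 and Smg8 none. The CCAAT box (CCAAT or ATTGG) occurred in Smg1 and Smg8, against 33.8% of all windows. The arrays measured RNA and do not bear on these matches, which are a description of the letters only.

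Most decay factor mRNAs made up a larger part of the Staufen2 pulldown than of the input. Of the 7 measured, 6 were higher (Upf1, Upf2, Smg1, Smg5, Smg6 and Smg8), none was lower, and Smg9 did not pass the test. The test was limma's moderated test over all genes at a Benjamini-Hochberg adjusted p under 0.05, by which 31.3% of all genes were higher and 17.3% lower, 48.7% in all. Higher genes were thus 64.4% of the calls, but 52.9% after cyclic loess. Since dim probe sets seldom pass, the background was also taken over genes above 6.54, the median of all values, called the median level below. Counted here were the 12162 genes whose mean in either group, input or pulldown, exceeded that level. Of these 45.9% were higher and 26.8% lower. All 7 decay factors lay above that level in both groups. In all 7 the 3 pulldown values lay above the 3 input values, which was so for 36.4% of all genes and for 48.9% of those above the median level. At least 2-fold differences were found for Smg1 and Upf2, against 1.67% of all genes that were higher to that degree. The median log2 difference (pulldown minus input) of the 7 was 0.60, beside 0.042 over all genes.

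**Figure D1:**
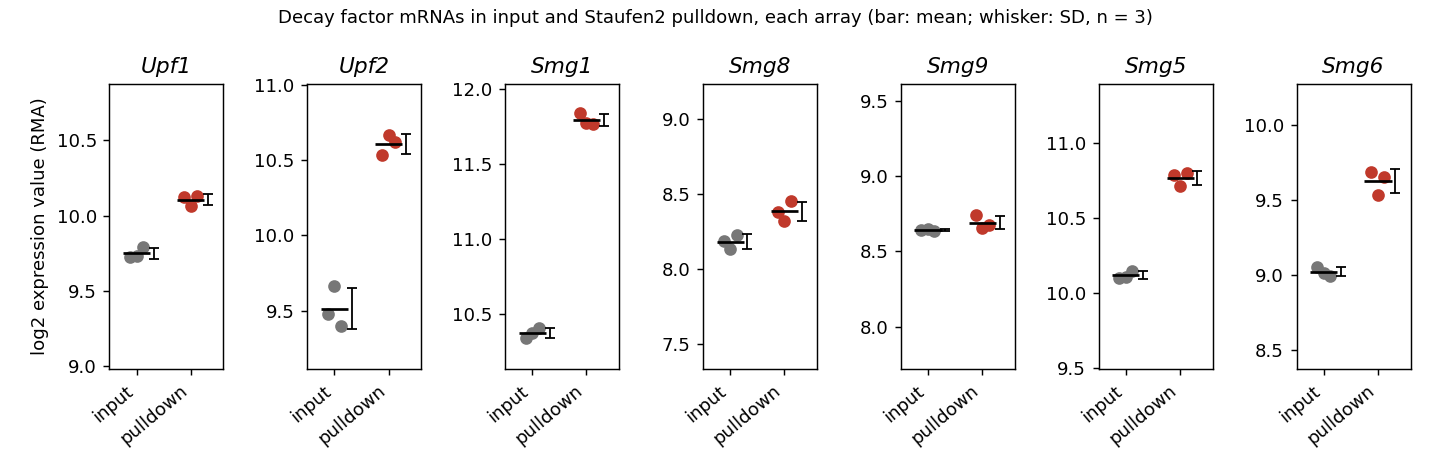
Log2 expression value on the y axis for each of the 7 measured decay factors, with 1 point per array, bars at the group mean and whiskers of 1 SD (n = 3). Each panel covers the same height but starts at its own level, since levels of different probe sets are not comparable. The gap between input and pulldown is widest for Smg1 (1.42) and Upf2 (1.10) and smallest for Smg9 (0.048).

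Among the UPF proteins, Upf1, the helicase on which both decay routes converge, stood at 9.73, 9.73 and 9.79 in the 3 input arrays (log2 values, in replicate order here and below). In the pulldown it stood at 10.13, 10.07 and 10.13. The arrays of each group lay close together and the groups did not overlap. The log2 difference was 0.36 ± 0.033 (SE), or 1.28-fold (limma adjusted p = 5.7e-05), and did not pass a test against a 1.2-fold difference (limma's treat, adjusted p = 0.053). Upf2, the bridge between UPF1 and the UPF3 proteins, read 9.48, 9.66 and 9.40 in the input and 10.53, 10.67 and 10.62 in the pulldown. Its input arrays were the most scattered of the 7 genes (SD 0.14), yet the lowest pulldown array lay well above the highest input array. The log2 difference of Upf2 was 1.10 ± 0.070, or 2.14-fold (limma adjusted p = 7.0e-06).

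The kinase complex gave both the largest and the smallest difference. Smg1, a very large kinase of the phosphatidylinositol 3-kinase-related family, rose from 10.34, 10.38 and 10.41 in the input to 11.84, 11.77 and 11.76 in the pulldown. The spread within either group was small beside that step. The log2 difference was 1.42 ± 0.033 (SE), or 2.67-fold (limma adjusted p = 2.2e-07), and 99.8% of all genes ranked at or below it. Its partner Smg8 read 8.18, 8.13 and 8.23 in the input and 8.38, 8.32 and 8.45 in the pulldown. These groups were close but did not overlap. The difference of Smg8 was 0.20 ± 0.043 (limma adjusted p = 0.0054), and 0.12 (adjusted p = 0.042) after cyclic loess scaling. It did not pass the test against 1.2-fold either (adjusted p = 1). Smg9, which joins Smg8 on the kinase, stood at 8.64, 8.65 and 8.63 in the input and at 8.74, 8.66 and 8.67 in the pulldown. The lowest pulldown array lay only just above the highest input array. Its difference was 0.048, with a 95% interval from -0.025 to 0.12 (limma adjusted p = 0.25), and its sign turned (-0.049, adjusted p = 0.27) after cyclic loess.

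The effectors that read phosphorylated UPF1 had differences of similar size. Smg5, an adaptor that binds phosphorylated UPF1, read 10.10, 10.11 and 10.15 in the input and 10.79, 10.71 and 10.80 in the pulldown. Smg6, the endonuclease, read 9.055, 9.016 and 8.996 in the input and 9.68, 9.53 and 9.66 in the pulldown. In both genes, as in Upf1, Smg8 and Smg9, the second pulldown array was the lowest of the 3. All pulldown arrays were above all input arrays, as in every measured decay factor. The log2 differences were 0.65 ± 0.034 (SE) for Smg5 (1.57-fold, limma adjusted p = 2.5e-06) and 0.60 ± 0.044 for Smg6 (1.52-fold, limma adjusted p = 1.5e-05).

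**Figure D2:**
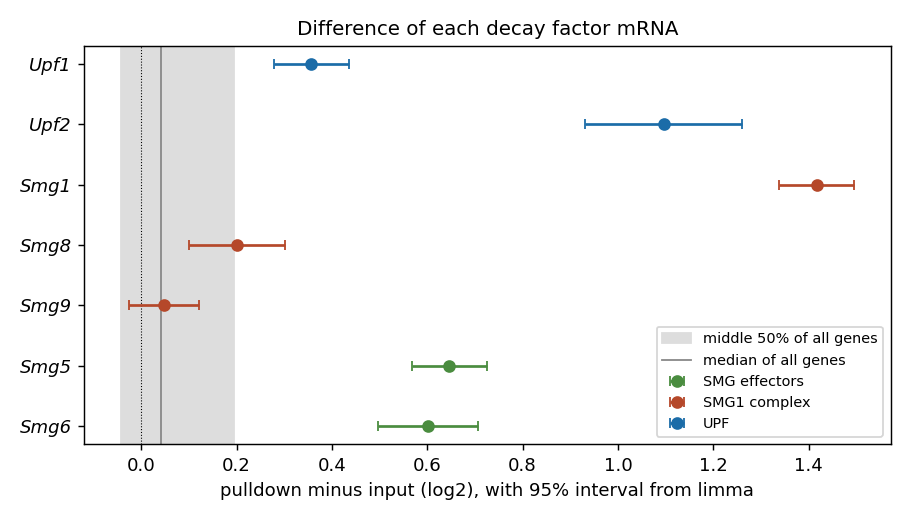
Log2 difference (x axis) of each measured decay factor (y axis), coloured by role, with the 95% interval from limma. The grey band marks the middle 50% of all 19938 genes (-0.043 to 0.19); the intervals of Upf1, Upf2, Smg1, Smg5 and Smg6 lie to its right, and those of Smg8 and Smg9 reach into it.

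The members of a role were set against each other on the same arrays, in 5 pairs, by the exact 2-sided permutation test of 3 against 3 samples, which cannot give a p below 0.10. The difference of Smg1 exceeded that of Smg9 by 1.37 ± 0.022 (SE) and that of Smg8 by 1.22 ± 0.053. Smg8 exceeded Smg9 by 0.15 ± 0.053, and Upf2 exceeded Upf1 by 0.74 ± 0.11. In these 4 pairs the within-array log ratios of the groups did not overlap, and the exact p was 0.10 (0.13 adjusted over the 5 pairs). Smg5 and Smg6 differed by 0.045 ± 0.038, with overlapping groups (exact permutation p = 0.30, adjusted p = 0.30). By size the differences ran from Smg1 and Upf2 through Smg5 and Smg6 to Upf1, Smg8 and Smg9, and with 3 arrays a group no step in that order could pass the exact test.

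Larger genes tended to have larger differences, among the decay factors and on the whole array. Smg1 and Upf2 span 113 and 105 kb of the genome in the RefSeq gene table, Smg6 239 kb, Smg5, Smg9 and Upf1 between 21.9 and 26.1 kb, and Smg8 9.05 kb. Span includes introns and is only a coarse measure of the size of an RNA. Spearman's rank correlation between span and difference was 0.68 over the 7 genes and 0.48 over 11770 coding genes above the median level, a description across genes that share the same 6 arrays. Of the 1548 such genes over 100 kb, 74.9% were higher, with a median of 0.42 and quartiles of 0.12 and 0.71. Smg1 and Upf2 lay above the upper quartile of that class, and Smg6 between its median and upper quartile. Of the 3912 genes of 10 to 30 kb, 40.5% were higher, with a median of 0.049 and quartiles of -0.20 and 0.28. In that class Smg5 and Upf1 lay above the upper quartile, whereas Smg9 was close to the median. Smg8, at 0.20, lay above the upper quartile (0.083) of the 2946 genes of up to 10 kb. The part of gene size in these differences was not tested.

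**Figure D3:**
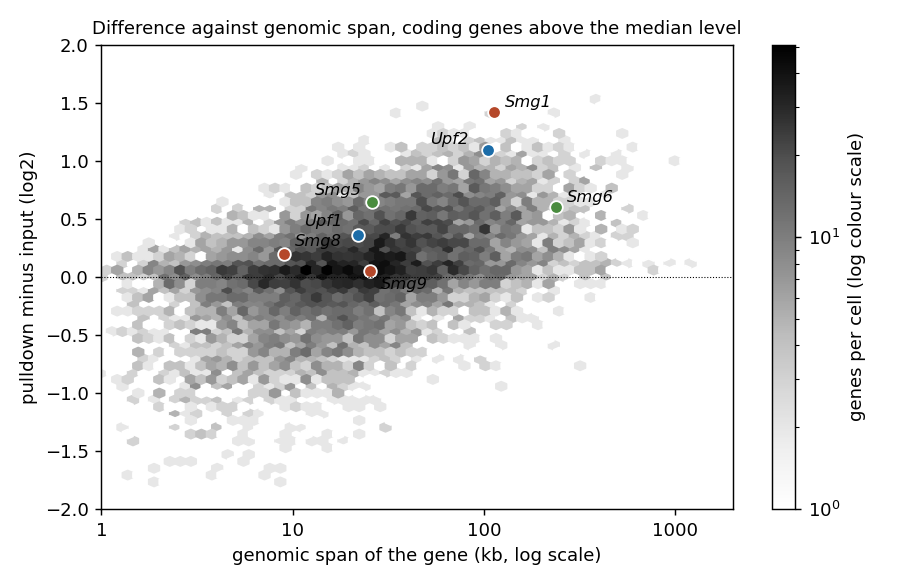
Log2 difference (y axis) against genomic span in kb (x axis, log scale) for coding genes above the median level, as shaded counts, with the 7 decay factors as labelled points coloured by role. The cloud rises with span, and Smg1 (1.42 at 113 kb) lies along its upper edge; 117 of the 11770 genes fall outside the axes.

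Genes whose 6 values were most like those of a decay factor were sought after each gene's own mean was removed, by root mean square distance over the 6 arrays. For Smg1 the nearest were Rev3l, the catalytic subunit of DNA polymerase zeta, the desmosomal linker Dsp and the repair gene Brca1, at distances of 0.035 each and log2 differences of 1.41, 1.46 and 1.40. For Upf1 they were the ATP-gated channel P2rx7, the histone demethylase Kdm6a and the gamma-secretase subunit Aph1a, at distances of 0.011, 0.011 and 0.015. With 2 groups of arrays such likeness mostly reflects the size of the difference.

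The wider pathway and genes related to it were described by 10 further lists of genes, chosen by role. These lists too were drawn up with earlier results of these data known. Their counts beside the background are therefore a description only. Some lists hold relatives of UPF1, relatives of SMG1 with their chaperone, or described targets of decay, and not parts of the pathway as such. Genes given with an SE are those named by rule, mostly the 4 smallest adjusted p of a list. Those given without one, except Stau2, were picked afterwards, so most genes were named on their values. Stau1, Stau2 and the exon junction core (Eif4a3, Magoh, Rbm8a and Casc3) were named whatever their values. In these lists 44 of 73 measured genes (70 of them above the median level) were higher and 9 lower, beside 45.9% and 26.8% of all genes above that level. Of the 44, the UPF1-like helicases gave 7, the kinases with their chaperone 7, and the lists of targets 2 and 4. The count of lower genes was 19 after cyclic loess and 5 without pulldown replicate 2, and the test against 1.2-fold left 23 higher and 5 lower. Among other decay factors 6 of 8 were higher and none lower (median 0.30). Nbas, which takes part in the decay of endoplasmic reticulum mRNAs, was higher by 0.66 ± 0.032 (SE), the helicase Dhx34 by 0.38 ± 0.051 and the cap-binding subunit Ncbp1 by 0.30 ± 0.030. Cwc22, which brings eIF4A3 to the spliceosome, was higher by 0.68 ± 0.052, but it has 8 probe sets, 7 of them with the same value and the other at 0.30, so its size is uncertain.

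Exon junction complex mRNAs, whose proteins mark spliced junctions for UPF3, included 3 of 7 higher and 1 lower (median 0.073), counts near the background of 45.9% and 26.8%. Eif4a3, the core helicase of the complex, stood at 10.29, 10.26 and 10.25 in the input and fell to 9.59, 9.53 and 9.71 in the pulldown. Its groups were far apart, in the direction opposite to Upf1. The log2 difference was -0.66 ± 0.047 (SE, limma adjusted p = 1.2e-05). A further 2 probe sets list Eif4a3 together with other genes and were not used. The core subunit Rbm8a, or Y14, had a difference of -0.054 ± 0.036 (adjusted p = 0.26), and of -0.16 (adjusted p = 0.0059) after cyclic loess, while Casc3, another core subunit, was higher by 0.31 ± 0.042. The peripheral proteins Acin1 and Sap18 were higher by 0.35 ± 0.036 and 0.31 ± 0.053. Magoh is not analysed here. All 5 translation termination genes were higher, between 0.18 and 0.40, among them the release factors Etf1 (0.35 ± 0.042), Gspt1 (0.37 ± 0.029) and Gspt2 (0.40 ± 0.045), the recycling factor Abce1 (0.24 ± 0.029) and the poly(A)-binding protein Pabpc1 (0.18).

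Of 7 genes of decapping and 5′ to 3′ decay, 5 were higher and 1 lower (median 0.58). The background was again 45.9% higher and 26.8% lower among all genes above the median level. Xrn1, the 5′ to 3′ exonuclease, was higher by 0.91 ± 0.031 (SE), the decapping enzyme Dcp2 by 0.65 ± 0.029, the helicase Ddx6 by 0.59 ± 0.027 and the decapping scaffold Edc4 by 0.41 ± 0.027. The decapping activator Dcp1a was higher (0.58) and its paralog Dcp1b lower (-0.16), although Dcp1b did not pass without any 1 of 4 arrays (input replicates 2 and 3, pulldown replicates 1 and 2; adjusted p 0.070 to 0.080). Of 15 exosome and SKI genes, 4 were higher and 4 lower (median -0.081), beside the same background. None of the 8 measured subunits Exosc1 to Exosc9, which form the exosome's core, was higher, and 3 of them were lower, namely Exosc5 at -0.59 ± 0.057, Exosc1 at -0.50 ± 0.045 and Exosc4 at -0.46. Wdr61 of the SKI complex was the other lower gene (-0.11), and did not pass without input replicate 1 or 3 or pulldown replicate 2 (adjusted p 0.052 to 0.073). In contrast Dis3, a nuclease of the exosome, was higher by 0.86 ± 0.039 and Ttc37, the scaffold of the SKI complex, by 0.87 ± 0.036. Exosc10, another exosome nuclease, did not pass (0.064, limma adjusted p = 0.10). The SKI helicase Skiv2l (0.33) and the ribosome rescue factor Hbs1l (0.15) were also higher, the latter not after cyclic loess (0.046, adjusted p = 0.30). The measured core subunits are short genes, with spans from 3.27 kb (Exosc4) to 22.9 kb (Exosc7). Of coding genes above the median level, 19.9% of those up to 10 kb were higher (median -0.099). In the class of 10 to 30 kb the share was 40.5% (median 0.049). The part of gene size in the exosome differences was not tested.

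Relatives of UPF1 and of SMG1 were mostly higher as well, beside 45.9% higher and 26.8% lower of all genes above the median level. Of 8 UPF1-like helicases 7 were higher and none lower (median 0.64), among them Helz2 (0.84 ± 0.042), Helz (0.81 ± 0.040), Aqr (0.69 ± 0.026) and Znfx1 (0.58 ± 0.030). All 5 kinases related to SMG1 were higher, with a median of 1.12, namely the DNA damage kinases Prkdc (1.26 ± 0.037), Atm (1.18 ± 0.029) and Atr (1.12 ± 0.034), the growth regulator Mtor (0.93) and the inactive family member Trrap (0.89 ± 0.033). A second probe set of Trrap, with a lower mean level, gave 1.46 ± 0.069. Of the chaperone proteins that stabilize these kinases, Tti1 (0.48) and Telo2 (0.30) were higher and Tti2 did not pass (0.029). The 5 kinases are long genes, with spans from 92.0 kb (Trrap) to 205 kb (Prkdc). Of coding genes above the median level, 64.4% of those of 30 to 100 kb were higher, and 74.9% of those over 100 kb. The kinases lay above the upper quartiles of these classes (0.55 and 0.71). Differences between Smg1 and these kinases, or Upf1 and these helicases, were not tested, and neither was the part of gene size.

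**Figure D4:**
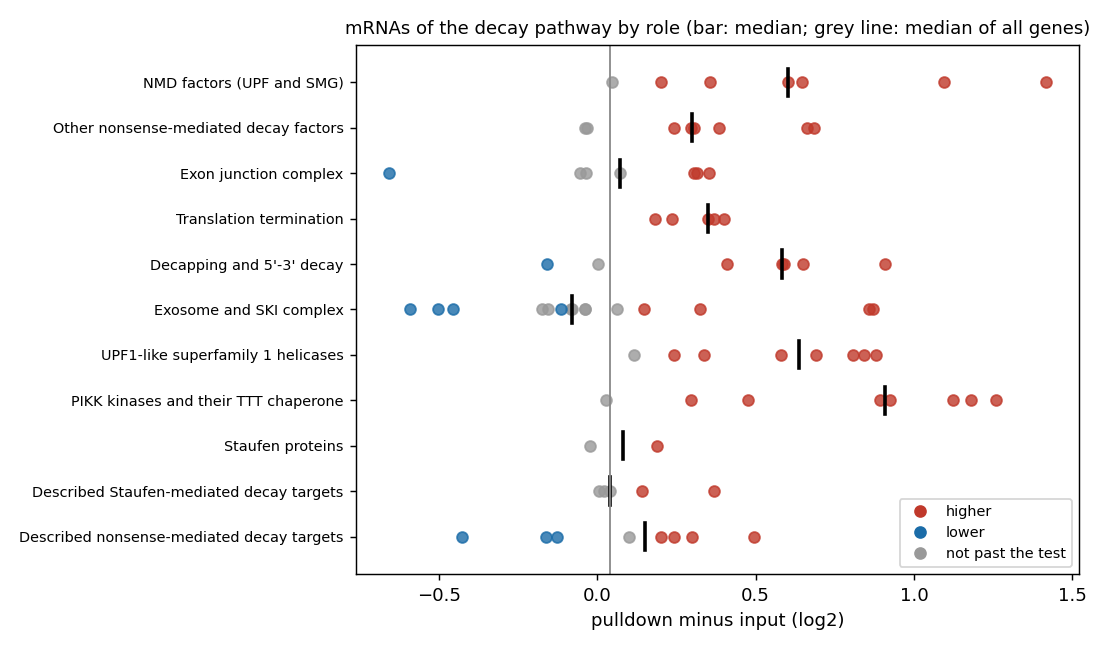
Log2 difference (x axis) of every measured gene of the decay pathway and of the lists of relatives and described targets, 1 row per role. Points are coloured by the result of limma's test, with a bar at each row's median and a grey line at the median of all genes (0.042). The UPF and SMG factors (up to 1.42) and the kinases (up to 1.26) extend furthest right, and Eif4a3 (-0.66) and Exosc5 (-0.59) furthest left.

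Both Staufen mRNAs were measured, in a pulldown of the Staufen2 protein. Stau1 read 11.95, 11.90 and 11.92 in the input and 12.09, 12.11 and 12.13 in the pulldown, without overlap. Its difference of 0.19 ± 0.029 (SE) was about that of Smg8. Stau2 read 10.76, 10.77 and 10.80 in the input and 10.73, 10.76 and 10.77 in the pulldown, and its groups overlapped. It did not pass (-0.023, limma adjusted p = 0.52), but was lower after cyclic loess (-0.13, adjusted p = 0.0052). Among 5 measured mRNAs described as targets of Staufen-mediated decay in human or mouse cells, 2 were higher and none lower (median 0.042), beside 31.3% higher of all genes. Only 3 of the 5 lay above the median level, where 45.9% of genes were higher, so 2 of 5 is not comparable with that share. The 2 higher targets, both above the median level, were Jun at 0.37 ± 0.039 and Arf1 at 0.14 ± 0.034. Arf1 did not pass the test after cyclic loess (0.061, limma adjusted p = 0.21). A second, dimmer probe set of Arf1 gave 0.061 ± 0.027 and did not pass either (adjusted p = 0.13 over all probe sets). Of 8 mRNAs described as targets of nonsense-mediated decay, all above the median level, 4 were higher and 3 lower (median 0.15). The background at that level was 45.9% higher and 26.8% lower. The higher ones were Ern1, a stress sensor of the endoplasmic reticulum, at 0.50 ± 0.055, Tbl2 at 0.30 ± 0.042, Gadd45a at 0.24 (not past the test after cyclic loess, 0.13, adjusted p = 0.070) and the stress transcription factor Atf4 at 0.20 ± 0.032. The lower ones were Ddit3, another such factor, at -0.43 ± 0.043, Gadd45b at -0.13 and Gas5 at -0.16. Gas5 carries small nucleolar RNAs in its introns, and its other 3 probe sets ranged from -2.22 to -0.15, so its size is uncertain. Gadd45b and Gas5 also lost their calls with single arrays left out, Gadd45b with any of 4 (input replicates 1 and 2, pulldown replicates 1 and 2) and Gas5 with any but pulldown replicate 1.

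The arrays were alike in scale, with medians of 6.53 to 6.54, and Pearson correlations over all probe sets were at least 0.998 within a group and at most 0.983 between groups. Of 7 measured podocyte markers 4 lay above the median level in the input, among them Wt1 (9.57), whereas Nphs1 (6.30), Ptpro (6.10) and Podxl (6.04) did not. All 4 endothelial markers lay below it, but 3 of 4 mesangial or fibroblast markers, 2 of 4 tubular markers and 1 of 4 immune markers lay above. Nothing in the labels says whether the replicates were separate cultures, and the p-values therefore cover the spread of these 6 samples, possibly a technical one. A control antibody is not among the samples analysed here. Higher values thus describe what was recovered compared with the input, and not binding as such.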

How the data were processed

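RNA from 3 input and 3 Staufen2 pulldown samples was hybridized to whole-transcript arrays. The deposited values are log2 expression values per probe set, made with RMA per the submitters' processing notes. These also list limma, and versions are not given in the sources used here. Values were used without further scaling. Of 35556 probe sets, 21789 had 1 gene symbol in the platform annotation, 1621 several and 12146 none listed. Only the first were named, and the brightest over 6 arrays stood for a gene, which left 19938 genes. Pulldown minus input was tested for all of them with limma 3.58.1 in R 4.3.3 (2-sided, no covariates, Benjamini-Hochberg over all genes). The fit was checked on data simulated with independent normal noise, a check that cannot bear on the scaling between the groups. SEs are moderated except for pairs of members, where they come from the arrays' own spread.

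The members and lists were chosen with earlier results of these data known. All members were named, and from each other list up to 4 genes with the smallest adjusted p; Stau1, Stau2 and the exon junction core were named in any case. Samples of the same replicate number did not deviate together (correlations of 0.006, 0.041 and -0.052), so numbers were taken as names. The number of arrays limits the precision. Alternatives were a replicate block, a variance trend, other scalings, a filter on dim genes, array weights, mean probe sets, a test against 1.2-fold (treat) and leaving out each array. Figures were drawn with matplotlib 3.10.9.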

Additional observations from a re-analysis of the deposited data

How the results depend on the processing

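The 6 higher decay factors passed the test in all 14 alternatives except for Upf1 (0.36, adjusted p = 0.053) and Smg8 (0.20, adjusted p = 1) in the test against a 1.2-fold difference. Smg9 passed in none, and its difference was -0.049 after cyclic loess. The median of the 7 fell to 0.49 after cyclic loess, and lay between 0.57 and 0.65 with 1 array left out. With the replicate block, which the replicate check does not call for, the members' median stayed at 0.60 and no call of a member changed, while Gadd45b and Gas5 lost theirs. Over all genes the test against 1.2-fold left 3034 higher and 1822 lower, and in the other decay lists 23 higher and 5 lower. Cyclic loess gave 19 lower genes in these lists, and leaving out 1 array gave 5 to 8. The higher genes made up 64.4% of all calls, 52.9% after cyclic loess and 56.1% after centring on the brightest probe sets. The alternatives were followed for 51 genes named from the other lists, without Exosc10. Of these, 2 that had not passed did so after cyclic loess (Stau2 at -0.13 and Rbm8a at -0.16), and 3 ceased to pass (Arf1 at 0.061, Gadd45a at 0.13 and Hbs1l at 0.046). The test against 1.2-fold ended 21 of their calls. Leaving out an array ended those of 4 genes (Dcp1b, Wdr61, Gadd45b and Gas5). Array weights ended that of Gas5 (-0.15). Tti2, which did not pass, changed sign after centring (-0.012), after cyclic loess (-0.073) and without input replicate 1, with a range of -0.00098 to 0.055 over the arrays left out. Another background correction was not tried, since only normalized values were used.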
